A study of Homo sapiens with 3 samples.

Results

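Squamous lineage transcription factors were followed in FaDu, a cell line established from a human hypopharyngeal squamous tumour, kept with the greater celandine extract NSC-631570 or without it. The factors are 10 genes set by name: TP63, SOX2, KLF4, KLF5, TFAP2A, TFAP2C, GATA3, PITX1, GRHL2 and GRHL3. All probe sets whose annotation names exactly 1 gene, that gene being one of the 10, were taken. This gave 28 probe sets of 9 genes, out of 44988 probe sets naming 1 gene and 49395 in all. TP63 is not analysed here. A probe set is a group of short probes designed against one transcript region, and the array holds 1 to 7 of them for each of the 9 genes.

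The treated group was 1 PrimeView array of cells grown for 48 h with 10 µg/ml NSC-631570, which the submitters describe as the EC50 dose. The untreated group was 2 arrays of cells given distilled water instead. All cells were of the same line and no genetic change was made. The treated condition has no replicate, the labels do not say whether the untreated arrays came from separate cultures, and p-values may therefore measure technical spread alone.

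These factors set the identity of stratified epithelium. SOX2 is a basal-cell and stem-cell factor that is often amplified in squamous carcinomas. KLF5 is linked to growth of basal cells and KLF4 to their differentiation and barrier formation. AP-2 alpha and AP-2 gamma, encoded by TFAP2A and TFAP2C, drive early surface ectoderm and keratin genes. GATA3 acts in skin barrier and hair follicle, and PITX1 patterns the hindlimb and jaw and is expressed in oral epithelium. GRHL2 and GRHL3 are grainyhead-like factors that maintain junction genes and, for GRHL3, terminal differentiation and wound repair.

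The regions before the transcription starts of KLF5, PITX1 and TFAP2A are shown because probe sets of these genes gave different answers and because KLF5 and TFAP2A each have 2 starts in the RefSeq table. Each run holds the 250 bases before a start, on build GRCh38.p14, read 5′ to 3′ along the gene's strand. Capitals mark GGGCGG, the GC box bound by KLF and SP factors, and TATAAA, the TATA box, on either strand.
KLF5 first start, chr13:73054726-73054975, plus strand: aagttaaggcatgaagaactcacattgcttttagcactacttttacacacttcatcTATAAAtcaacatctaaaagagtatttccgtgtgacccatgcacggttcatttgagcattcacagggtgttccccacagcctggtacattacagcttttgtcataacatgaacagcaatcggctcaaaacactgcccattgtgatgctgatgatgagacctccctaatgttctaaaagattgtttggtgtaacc
KLF5 second start, chr13:73058755-73059004, plus strand: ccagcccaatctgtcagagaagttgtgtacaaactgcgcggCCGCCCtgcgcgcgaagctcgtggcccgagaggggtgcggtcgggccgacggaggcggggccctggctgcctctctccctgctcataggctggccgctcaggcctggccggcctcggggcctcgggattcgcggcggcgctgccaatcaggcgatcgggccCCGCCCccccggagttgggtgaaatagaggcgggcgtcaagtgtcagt
PITX1, chr5:135034229-135034478, minus strand: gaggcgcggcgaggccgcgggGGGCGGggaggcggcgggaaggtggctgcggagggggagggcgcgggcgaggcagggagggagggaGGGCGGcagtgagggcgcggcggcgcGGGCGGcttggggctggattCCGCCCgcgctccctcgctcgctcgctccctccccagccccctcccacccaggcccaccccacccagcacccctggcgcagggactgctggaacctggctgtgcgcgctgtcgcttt
TFAP2A first start, chr6:10419660-10419909, minus strand: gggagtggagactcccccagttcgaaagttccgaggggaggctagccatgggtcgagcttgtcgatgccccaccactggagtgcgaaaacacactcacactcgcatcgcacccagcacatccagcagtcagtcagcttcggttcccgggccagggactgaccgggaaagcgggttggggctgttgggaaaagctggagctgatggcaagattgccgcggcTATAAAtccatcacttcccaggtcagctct
TFAP2A second start, chr6:10412392-10412641, minus strand: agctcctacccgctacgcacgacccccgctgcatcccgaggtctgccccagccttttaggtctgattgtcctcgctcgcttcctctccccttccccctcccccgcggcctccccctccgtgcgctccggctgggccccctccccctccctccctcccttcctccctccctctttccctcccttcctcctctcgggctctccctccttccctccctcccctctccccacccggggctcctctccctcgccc

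The first KLF5 start lies behind an AT-rich stretch (40.8% G and C) with 1 TATAAA match and no GC box. That match lies nearer the 5′ end of the run than the start. The second start has 70.8% G and C and 2 GC boxes. PITX1 has 4 GC boxes and 79.2% G and C. Of the TFAP2A starts, the first has 1 TATA box and the second has neither motif. A GC box was found in 42.6% of 35116 RefSeq windows of the same length and in 9 of 15 windows of the 7 factors that have one in the table. A TATA box was found in 10.7% of all windows and in 3 of the 15. The AP-2 motif GCCNNNGGC was in 6 of the 15 windows, against 19.8% of all windows. The core of the dioxin response element, GCGTG, was in 2 of the 15, one before a GRHL3 start and one before a GATA3 start, against 32.2% of all. The grainyhead motif AACNGGTT was in none of the 15 and in 1.49% of all, and the GATA motif AGATAA was in 1, a GRHL3 window, and in 9.17% of all. Motifs were searched on both strands and overlapping matches were counted. GATA3 supplied 6 of the 15 windows, so the windows do not stand for 15 genes. The median G and C content of all windows was 58%, and the counts were not set against windows of like content. A match is a description of the letters.

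Across the 9 factors, 1 of 28 probe sets passed the test, a lower one of GRHL2. The test was limma, a moderated linear model, with Benjamini-Hochberg adjustment over all 44988 probe sets and a threshold of 0.05. It called 1.2% of all probe sets, and 1.02% as lower. In the treated array 6 of the 28 lay above both untreated arrays, where 38.7% of all probe sets did, and 11 lay below both, where 33.3% did. At least 0.5 (log2) beyond the nearer untreated array, 1 lay above and 5 below, where the shares over all probe sets were 4.39% and 5.65%. An unadjusted p under 0.05 was found for 1 higher and 6 lower probe sets, where 6.81% of all were higher and 7.34% lower at that p. The median difference of the 28 was −0.02, and that of all probe sets 0.02.

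With each gene taken by its brightest probe set and a filter on low signal (a mean of 5.85, the 40th percentile of all probe sets), 8 of the 9 factors could be tested and GRHL3 was left out. None of the 8 passed limma with Benjamini-Hochberg adjustment over 11932 genes, which called 0.067% of them. None had an unadjusted p under 0.05 either, where 14.4% of all genes did. Their median difference was −0.09, against 0.12 for all genes tested. KLF4 was above both untreated arrays, as were 51.6% of genes. KLF5, TFAP2A and GATA3 were below both, as were 22.5%. The smallest difference called in that fit was 1.94 in log2, so no gene with a change near 2-fold (1 in log2) was called. In a simulation of the fit, 10 of 50 genes changed 2-fold were recovered. That simulation also held 50 genes at each of 4-fold, 8-fold and 16-fold, while 8 genes were called in these data. Its recovery may therefore be higher than in these data.

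**Figure D1:**
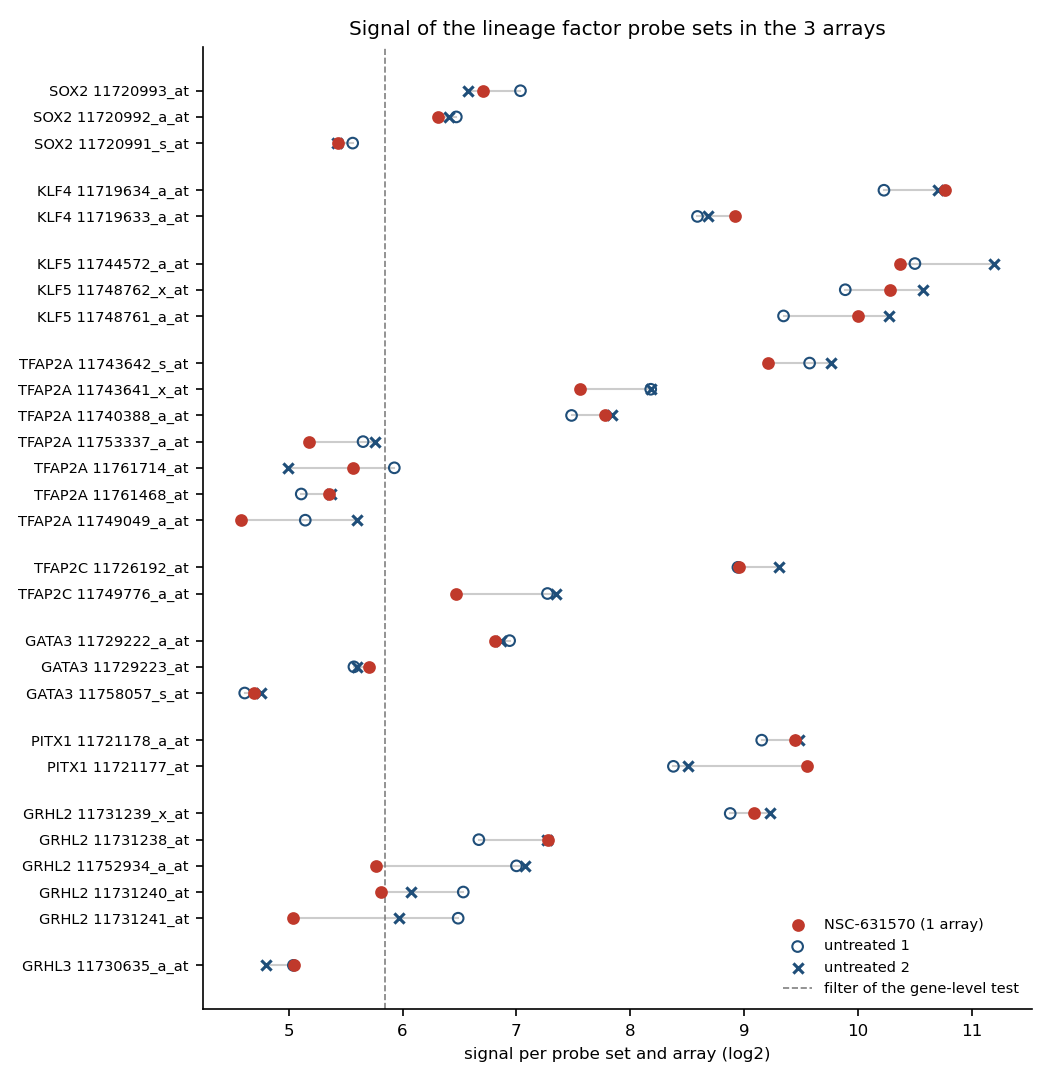
Log2 signal (horizontal axis) of each of the 28 probe sets (rows, grouped by gene, brightest first) in the NSC-631570 array (filled red), untreated 1 (open circle) and untreated 2 (cross). The dashed line is the filter of 5.85. PITX1 11721177_at lies to the right of both untreated arrays, and 3 GRHL2 probe sets, 4 of TFAP2A and 1 of TFAP2C are among those to the left of both.

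SOX2 differed little on any of its 3 probe sets. Its brightest one, 11720993_at, read 6.71 in the treated array, against 7.04 and 6.57 in the untreated ones. The treated value lay between the untreated values. The other two read 6.32 treated against 6.47 and 6.41 untreated, and 5.44 treated against 5.56 and 5.42 untreated. The differences were −0.13 to −0.06, and the 95% interval of the brightest (limma) ran from −0.69 to 0.50. Of the 3, 2 lay past the filter by their mean and 1 under it, and detection could not be called from the deposited values.

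The KLF factors were bright. KLF4 read 10.77 on its brightest probe set in the treated array, against 10.23 and 10.71 in the untreated ones. Its second one read 8.92 treated, against 8.59 and 8.68 untreated. Both stood above both untreated arrays, the first by only 0.06 and the second by 0.23, with differences of 0.30 and 0.28. The 2 differences were 0.018 apart. Neither passed (adjusted p = 0.724 and 0.634, limma), and the gene-level interval ran from −0.30 to 0.90.

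KLF5, which binds the same GC-rich boxes, gave 3 probe sets of differing sign. The brightest, 11744572_a_at, read 10.37 treated, against 10.50 and 11.20 untreated, a difference of −0.48 ± 0.30 (SE, limma, 1 treated against 2 untreated arrays). The second, 11748762_x_at, read 10.28 treated, against 9.89 and 10.58 untreated (0.05). The third, 11748761_a_at, read 10.00 treated, against 9.35 and 10.28 untreated (0.19). The untreated arrays themselves were 0.69 to 0.93 apart on these probe sets, more than any of the 3 differences. Untreated 2 was the higher on all 3. Taken from untreated 1 and untreated 2 singly, the brightest differed by −0.13 and −0.83.

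Among the AP-2 genes, TFAP2A had 7 probe sets, of which 4 lay below both untreated arrays and 3 between them. The brightest, 11743642_s_at, read 9.21 treated, against 9.58 and 9.76 untreated. That is 1.37-fold lower (−0.46 ± 0.22 in the gene-level fit, interval −0.97 to 0.06, adjusted p = 0.404 by limma). The next, 11743641_x_at, read 7.56 treated, against 8.18 and 8.18 untreated, a difference of −0.62 that is larger than the gap of 0.001 between the untreated arrays. The third, 11740388_a_at, was the other way: 7.78 treated, against 7.49 and 7.84 untreated (0.12). This was the only one of the 7 annotated with a RefSeq mRNA of TFAP2A, the others being annotated with other mRNA or EST records.

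The 4 remaining TFAP2A probe sets lay under the filter. Probe set 11753337_a_at read 5.18 treated, against 5.65 and 5.76 untreated (−0.52), and 11749049_a_at read 4.58 treated, against 5.15 and 5.60 untreated (−0.79). The other two, 11761714_at with 5.57 treated, against 5.93 and 4.99 untreated, and 11761468_at with 5.35 treated, against 5.11 and 5.37 untreated, differed by 0.11 each. The first of these had untreated values 0.93 apart. In all, 3 of the 7 had an unadjusted p under 0.05, with adjusted p = 0.203, 0.291 and 0.21 (limma), so none passed. The suffix x marks probe sets with probes that may match other sequences, and s marks those shared between transcripts. Signal of other transcripts cannot be told apart on these. The same holds for KLF5 11748762_x_at, GRHL2 11731239_x_at, SOX2 11720991_s_at and GATA3 11758057_s_at.

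TFAP2C had 2 probe sets. The brighter, 11726192_at, read 8.95 treated, against 8.95 and 9.31 untreated, a difference of −0.17 with the treated value between the untreated ones. The dimmer, 11749776_a_at, read 6.47 treated, against 7.27 and 7.35 untreated. It was 1.79-fold lower (−0.84 ± 0.19, adjusted p = 0.11, limma over all probe sets) and lay 0.80 below the nearer untreated array, without passing. The brighter is annotated with the RefSeq mRNA and the dimmer with another mRNA or EST record.

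GATA3 stayed within 0.13 of each untreated array on all 3 probe sets. The brightest read 6.82 treated, against 6.94 and 6.86 untreated, with a difference of −0.09. The others, under the filter, read 5.70 treated against 5.57 and 5.60 untreated, and 4.70 treated against 4.61 and 4.76 untreated.

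PITX1 gave the highest difference of the 28. Probe set 11721177_at read 9.55 treated, against 8.38 and 8.50 untreated, 2.16-fold higher (1.11 ± 0.19, interval 0.64 to 1.58). The treated value was 1.05 above the nearer untreated array, and 0.445% of all probe sets lay at least 1 above both. It did not pass over all probe sets (adjusted p = 0.0621, limma), and did when dim probe sets were left out first (adjusted p = 0.0454, with 0.0454 to 0.0734 over the alternatives). The other probe set, 11721178_a_at, read 9.45 treated, against 9.16 and 9.49 untreated, with a difference of 0.13 and the treated value between the untreated ones. It is the brighter over the 3 arrays and so stood for PITX1 in the gene-level fit (adjusted p = 0.883).

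GRHL2 had the widest disagreement. The brightest of its 5 probe sets, 11731239_x_at, read 9.09 treated, against 8.88 and 9.23 untreated (0.03), and 11731238_at read 7.28 treated, against 6.67 and 7.27 untreated (0.31). Both are annotated with the RefSeq mRNA of GRHL2, and the brightest has the suffix x, so its probes may match other sequences. The 3 annotated with other mRNA or EST records were below both untreated arrays. Probe set 11752934_a_at read 5.77 treated, against 7.001 and 7.08 untreated, and fell 2.42-fold (−1.27 ± 0.19, adjusted p = 0.0436, limma over all probe sets). It lay 1.24 below the nearer untreated array, and 1.67% of all probe sets lay at least 1 below both. Probe set 11731241_at read 5.04 treated, against 6.49 and 5.97 untreated (−1.19, adjusted p = 0.0994), and 11731240_at read 5.81 treated, against 6.53 and 6.07 untreated (−0.49, adjusted p = 0.463). The treated values of these 3 all lie under the filter of 5.85. The call of 11752934_a_at was lost after quantile normalisation (−1.24, adjusted p = 0.0574, limma, the highest over its alternatives, which ran down to 0.0292). The lowest came with dim probe sets left out first, a filter that 11752934_a_at passed only through its higher untreated values. As a mean over its probe sets, GRHL2 differed by −0.52.

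GRHL3 had 1 probe set, under the filter. It read 5.04 treated, against 5.04 and 4.80 untreated, a difference of 0.12 that is smaller than the gap of 0.24 between the untreated arrays. The treated value lay 0.0016 above the nearer untreated array.

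**Figure D2:**
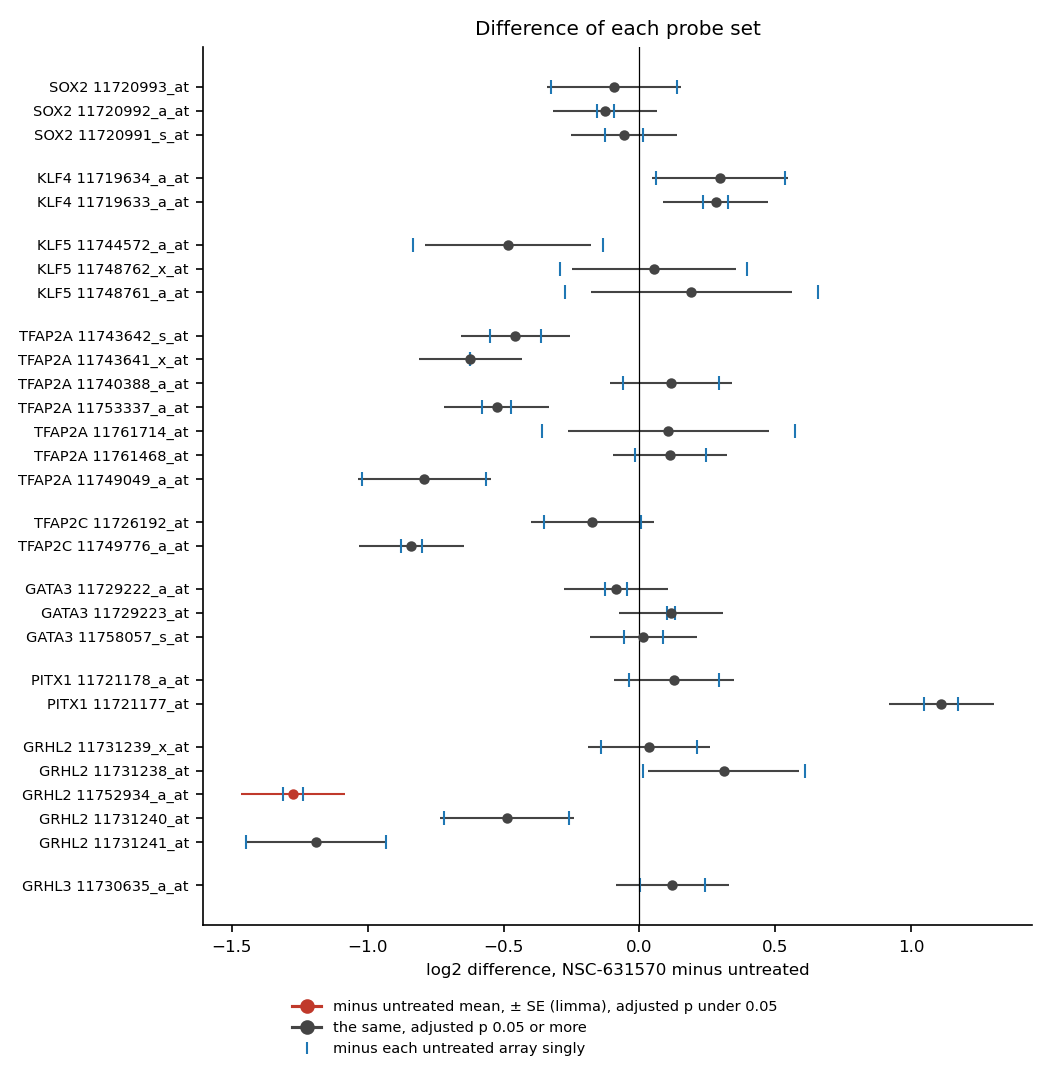
Log2 difference of each probe set, NSC-631570 minus the mean of the 2 untreated arrays, with the limma SE as bars; blue ticks give the difference from each untreated array singly. One GRHL2 probe set (red) has an adjusted p under 0.05. GRHL2, TFAP2A, TFAP2C and PITX1 each have probe sets far from 0 beside others near 0.

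How far probe sets of a gene disagree was compared with the 11734 genes that have at least 2. The probe sets of KLF4, SOX2 and GATA3 spanned 0.018, 0.07 and 0.20, less than the median over all genes of 0.37. The span was 1.58 for GRHL2, and 2.71% of the genes, or 5.67% of the 988 with 5 probe sets, spanned as much. It was 0.98 for PITX1, reached by 12.1% of all and 4.33% of those with 2 probe sets. For TFAP2A it was 0.91, reached by 37% of the genes with 7 probe sets, for KLF5 0.67 (24% of those with 3) and for TFAP2C 0.67 (11.4% of those with 2).

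In the same array the control probe set at the 5′ end of ACTB was 2.59-fold lower (12.23 treated, against 13.61 and 13.60 untreated). The 3′ one was 0.20 above the untreated mean. For GAPDH the 5′ control was 1.39-fold lower and the 3′ one differed by −0.01. Where along their transcripts the GRHL2, TFAP2A, TFAP2C and PITX1 probe sets lie was not used here, and the part of the 5′ signal in their differences was not tested. Over all genes with several probe sets, the brightest ones past the filter had a median difference of 0.11 and the other ones past it −0.05. Of the first, 0.135% were called lower, and of the second 2.73%.

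**Figure D3:**
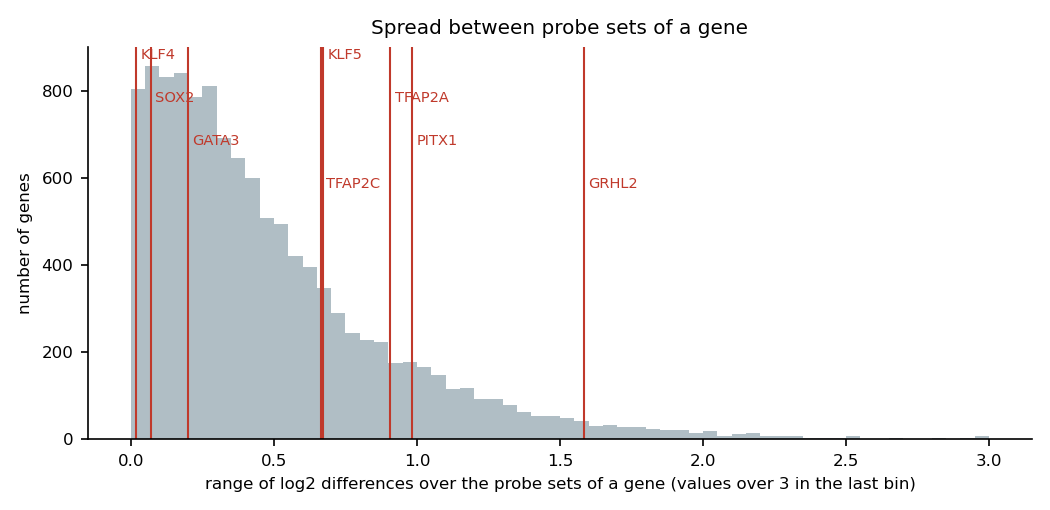
Number of genes (vertical axis) by the range of log2 differences over their probe sets (horizontal axis), for the 11734 genes with at least 2 probe sets. Red lines mark the 8 lineage factors with several probe sets, from KLF4 at 0.018 to GRHL2 at 1.58.

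The label of a squamous line was set against markers. Of 12 squamous markers 9 were named and all 9 had signal above the filter. KRT5, the basal keratin, read 12.91 treated, against 13.21 and 13.39 untreated, and its partner KRT14 read 11.49 treated, against 10.74 and 10.35 untreated. SFN, the epithelial 14-3-3 protein, read 13.96 treated, against 13.43 and 13.48 untreated. Of the 6 fibroblast markers 4 lay under the filter and 2, COL1A1 and PDGFRB, lay past it, COL1A1 with 6.08 treated, against 6.02 and 6.02 untreated, and PDGFRB with 6.20 treated, against 6.21 and 6.10 untreated. COL3A1 read 4.27 treated, against 4.37 and 4.21 untreated, and LUM 3.58 treated, against 3.51 and 3.50 untreated. The pan-leukocyte gene PTPRC read 3.78 treated, against 3.72 and 3.72 untreated. All 6 fibroblast and 4 named leukocyte markers were measured. Over the fibroblast markers the signals ran from 3.58 to 6.20 treated, 3.51 to 6.21 in untreated 1 and 3.50 to 6.10 in untreated 2, and their summed log2 signal was 29.9, 30.4 and 29.4. The leukocyte list ran from 3.78 to 7.42 treated, 3.72 to 7.03 in untreated 1 and 3.71 to 6.17 in untreated 2, with CD14 the highest. The 3 endothelial markers lay past the filter, with signals of 6.57 to 7.40 treated, 6.60 to 7.54 in untreated 1 and 6.37 to 7.79 in untreated 2. Of 5 markers of columnar epithelium 4 lay past the filter, and KRT8 and KRT18 were bright: KRT18 read 13.09 treated, against 13.96 and 14.21 untreated, and KRT8 12.97 treated, against 13.47 and 13.68 untreated. Keratins of both squamous and simple epithelium were thus measured at high signal in all 3 arrays. In whole cultures, fewer cells of a kind and less RNA per cell cannot be told apart.

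Genes linked to the factors were taken by lists, each gene by its brightest probe set past the filter. The lists hold known targets and markers, and also paralogs, other transcription factors, and partners and regulators of the factors. None of the 98 tested genes on 8 lists passed limma's test over all genes. At an unadjusted p under 0.05, 17 were higher and 2 lower, where 12.2% of all genes were higher and 2.24% lower. Of all genes tested, 66% lay above the untreated mean, and the lists are read against that share and the median of 0.12. That median was −0.08 with arrays centred on the tested genes, 0.07 without a filter and 0.04 with means of probe sets. Centring shifts all genes of an array alike, so the distance of a list median from that of all genes is kept under it. No set test was made.

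As deposited, basal and late genes of keratinocytes had medians above that of all genes. Of 17 tested p63 targets of basal cells 13 were above the untreated mean and 11 above both untreated arrays, with a median of 0.31, which was −0.07 when a gene was taken as the mean of its probe sets, 0.19 without untreated replicate 1 and 0.11 with arrays centred on the tested genes. The chromatin organiser SATB1 (0.999, its 2 other probe sets −0.02 and 0.50), the integrin gene ITGA3 (0.85, its 2 other probe sets −0.21 and −0.85), BMP7 (0.80, its other probe set 0.24) and the FGF carrier gene FGFBP1 (0.67) stood farthest from 0. Of 12 tested late differentiation genes 11 were above the mean and 9 above both arrays. Their median was 0.27, and 0.17 without untreated replicate 2. It was 0.12 without a filter and 0.07 with arrays centred on the tested genes, where the medians of all genes were 0.07 and −0.08. The other 12 genes of that list lay under the filter, 7 of them below the untreated mean, among them DSG1 (−0.27) and FLG (−0.17). The largest difference among the 12 was that of SCEL, at 0.72 (5.67 treated, against 4.98 and 4.92 untreated). The tested genes farthest from 0 were the cornified envelope precursor SPRR1B at 0.94, KRT4 at 0.84 (its other probe set 0.47), EVPL at 0.51 and KRT13 at 0.49 (its 2 others 0.39 and 0.57). SPRR1B read 6.68 treated, against 6.30 and 5.17 untreated, and KRT4 8.64 treated, against 8.68 and 6.93 untreated. Both have untreated values more than 1 apart, and the untreated mean of SPRR1B is under the filter, so it was tested only through its higher treated value.

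The 9 squamous markers had a median of 0.15, with 6 above the untreated mean and 4 above both arrays. With arrays centred on the tested genes it was −0.05, where that of all genes was −0.08. KRT14 (0.95), the plakophilin gene PKP1 (0.94, its 2 other probe sets 0.47 and 0.53), SFN (0.51) and the P-cadherin gene CDH3 (0.41, its other probe set −0.06) stood farthest from 0. Of 12 genes of the epithelial programme linked to GRHL factors, 9 were above the mean and 8 above both arrays, with a median of 0.14, or −0.06 with that centring and −0.02 with means of probe sets. The protease inhibitor gene SPINT1 stood at 0.79 (its 4 other probe sets −0.23 to 1.01), CLDN7 at 0.48, the splicing regulator gene ESRP2 at 0.45 and the adhesion gene EPCAM at −0.42, with its 2 other probe sets at −0.42 and −0.41. EPCAM read 12.40 treated, against 12.74 and 12.91 untreated.

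Related factors and partners were spread around 0, with list medians whose sign depended on the scaling and on the filter. That of other squamous transcription factors was −0.07 with the filter at the 60th percentile, and that of partners 0.04 without a filter. With the filter at the 60th percentile the paralog median was 0.33, where that of all genes was 0.14. Of 17 tested paralogs 8 were above the untreated mean (median −0.02), led by KLF13 (0.90, its other probe set −0.04), GATA6 (0.83), GATA2 (0.68, its 5 others −0.15 to 0.61) and GRHL1 (0.51, its 2 others −0.66 and −0.53). Of 13 other squamous transcription factors 7 were above it (median 0.01), led by CEBPA (0.90), EHF (0.65, its 7 others at a median of −0.47), ELF3 (−0.65, its 2 others at a median of −0.76) and CEBPD (−0.55, its 4 others at a median of −0.79). CEBPA read 7.80 treated, against 6.81 and 6.98 untreated. Of 15 partners and regulators of these proteins 7 were above it (median −0.0024), with the ubiquitin ligase gene VHL, which acts on KLF4, at −0.88 (its other probe set −0.44), the p53-family inhibitor gene PPP1R13L at 0.71, the AP-2 inhibitor gene KCTD1 at 0.64 and the acetyltransferase gene EP300 at −0.57. The mesenchymal factors past the filter, TWIST1 (0.25), SNAI2 (0.15) and SNAI1 (0.01), stood above the untreated mean, and none passed. Their median of 0.15 became −0.05 with arrays centred on the tested genes, where that of all genes was −0.08. ZEB1 (−0.10) and ZEB2 (−0.23), which repress epithelial genes, lay under the filter and below both untreated arrays. Without a filter the median of the 5 mesenchymal factors was 0.01.

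**Figure D4:**
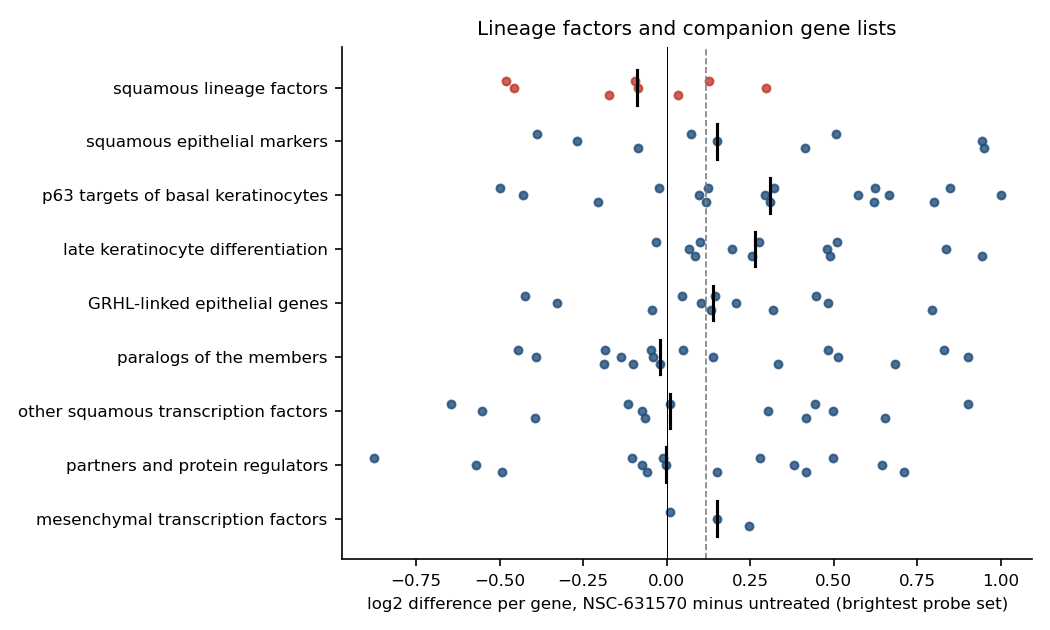
Log2 difference per gene (horizontal axis, NSC-631570 minus untreated, brightest probe set past the filter) for the 8 tested lineage factors (red) and 8 companion lists (blue), with the median of each as a black bar and that of all tested genes, 0.12, as a dashed line. The factors lie between −0.48 and 0.30.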

How the data were processed

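RNA of 3 FaDu samples was hybridised to PrimeView arrays. Per the labels and the values, the authors deposited a log2 signal for each probe set, made with Affymetrix Expression Console per the submitters' processing notes. Neither its version nor the algorithm nor any normalisation is given in the sources used here. The log2 scale is inferred from the range of 2.98 to 14.95 in the treated array. Array medians were 6.55 treated and 6.62 and 6.57 untreated. The values were used as deposited, detection could not be called, and precision is limited by having 3 arrays.

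Of 49395 probe sets, 102 are controls, 44988 named 1 gene, 1832 several and 2473 none, through the platform annotation with symbols updated from RefSeq. Limma 3.58.1 under R 4.3.3 was fitted, with adjustment by Benjamini-Hochberg, to all 44988 probe sets, and to 11932 genes by their brightest probe set past the 40th percentile of signal. Only the untreated pair gives residual variance (1 degree of freedom), which was moderated with 5.44 prior degrees of freedom for probe sets and 6.90 for genes. Equal spread in the treated condition is an assumption. Tested on simulated data of 44988 probe sets, the first fit recovered 1 of 50 changed 2-fold and 46 of 50 changed 4-fold. The second recovered 46 of 50 genes changed 4-fold, beside 5 unchanged ones called. Each simulation held 50 changed ones at each of 2-fold, 4-fold, 8-fold and 16-fold, so its recovery may not hold for these data.

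The factors and companion lists were chosen with earlier results of these data known. All probe sets of the 9 factors are named, and from each companion list up to 4 tested genes with the largest difference. Marker genes, KRT5, ZEB1, ZEB2, DSG1, FLG and SCEL are named beside them. Other scalings, filters, summaries, prior variances and leaving out each untreated array were tried. Promoter sequences are RefSeq's, build GRCh38.p14.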

Additional observations from a re-analysis of the deposited data

How the results depend on the processing

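Over all alternatives run, the number of tested lineage factors past the threshold stayed at 0 by gene, as did the number of companion list genes. By probe set it was 1 as deposited, 0 after quantile normalisation, and 2 with dim probe sets left out first, when PITX1 11721177_at joined GRHL2 11752934_a_at. The GRHL2 probe set read 5.77 treated, under that filter, and passed it only through its higher untreated values. The brightest probe set of PITX1 turned to −0.070 with arrays centred on the tested genes' median. GRHL2 turned to −0.16 there and to −0.52 as the mean of its probe sets. As such means PITX1 stood at 0.62, TFAP2C at −0.51, KLF5 at −0.08 and TFAP2A at −0.29, against 0.13, −0.17, −0.48 and −0.46 by the brightest probe set. Without one untreated array or the other, the median difference ran from −0.09 to −0.06 for the 8 factors and from −0.08 to −0.06 for the 28 probe sets. Those have 1 array a side and no test. Over all genes the calls were 8 as deposited, 4 after quantile normalisation, 136 with a common median over all probe sets, 50 with one over the tested genes, 3 for means of probe sets, 4 without a filter, 21 with the filter at the 60th percentile and 31 with an intensity trend. Over all probe sets they were 538 as deposited, 351 after quantile normalisation and up to 799 with the filter at the 40th percentile. Centring on the tested genes moved the median gene difference to −0.08, against 0.12 as deposited. No paired analysis was possible because the treated group has 1 array. The pseudocount alternative was not run, since the values are already logs.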

Other observations

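Of the keratins of simple epithelium, KRT8 and KRT18 lay below both untreated arrays. KRT18 differed by −0.99 and its other probe set by −0.85. KRT8 differed by −0.60, and its 7 other probe sets differed by −1.74 to −0.87. KRT7 was the other way, with 11.42 treated, against 10.48 and 10.88 untreated (0.74). None of the 3 passed over all genes (adjusted p = 0.132, 0.278 and 0.239, limma).

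The choice of probe set mattered over the whole array. Among genes with several probe sets, 25 of the brightest ones past the filter were called higher and 12 lower. Of the other probe sets past it, 24 were called higher and 418 lower.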
